A study of Mus musculus with 12 samples.

Results

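The subject is the set of 4 Serpinb3 paralogs of the mouse, Serpinb3a (Entrez Gene ID 20248), Serpinb3b (383548), Serpinb3c (381286) and Serpinb3d (394252), the locus named as targeted in the study. They were found by Entrez Gene ID among the 23469 gene IDs of the deposited count table, and all 4 were present and passed the filter on low counts. Serpinb3a and Serpinb3d passed it only through libraries of the genotype in which they are higher. The study sequenced RNA from the back skin of BALB/C mice in 12 libraries, 3 for each of 4 groups made of 2 genotypes and 2 treatments. Backs were shaved on day 0, a gauze patch was worn between day 1 and day 4, and the patched skin was taken on day 5. In the groups marked ASP the patch carried 200 µg of Aspergillus fumigatus extract, a mould extract used as an allergen. The groups marked SAL differ in that label, which is not spelled out.

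The first genotype is wild type. The second is described in conflicting ways: sample titles call it a knockout of SCCA2, the genotype field a Serpinb3a transgene, and the design text a Serpinb3a null. How the allele was made is not given in the labels. Serpinb3a was counted at higher, not lower, levels in the libraries of the second genotype. Counts per gene do not show whether the counted transcripts are intact, so they cannot settle which description holds. The libraries of the second genotype are therefore called "labelled-null", and every direction between genotypes below is a direction between labels. Whether libraries within a group stem from separate mice is not stated, so p-values measure a spread between samples that may be technical.

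Clade B serpins are intracellular protease inhibitors that lack a classical signal peptide. An exposed reactive-centre loop near the carboxyl end acts as bait for the protease, and small changes in the loop alter which protease is caught. The mouse Serpinb3 paralogs are the counterparts of human SERPINB3 and SERPINB4, also called squamous cell carcinoma antigens SCCA1 and SCCA2, which inhibit papain-like cysteine proteases and chymotrypsin-like serine proteases respectively. The human genes are expressed in squamous epithelia and are induced in keratinocytes by the type 2 cytokines IL-4 and IL-13 acting through STAT6.

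In mm10 coordinates (GRCm38, GENCODE M21) the 4 genes lie on the minus strand of chromosome 1 within 233 kb, among other clade B serpins. Serpinb3a spans chr1:107045587-107052303 in 8 exons and Serpinb3d spans chr1:107078163-107083480 in 7. Serpinb3b spans chr1:107153961-107161114 and Serpinb3c spans chr1:107271201-107278371, each in 8 exons. Serpinb3a, Serpinb3b and Serpinb3d each encode 387 amino acids and Serpinb3c encodes 386. The coding stretch that holds the reactive-centre loop is shown because it is the part that meets the protease. It covers coding bases 1006 to 1077, or 1006 to 1074 in the shorter Serpinb3c, and capitals mark bases that differ from Serpinb3a.
Serpinb3a: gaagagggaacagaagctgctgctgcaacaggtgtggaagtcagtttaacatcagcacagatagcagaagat
Serpinb3b: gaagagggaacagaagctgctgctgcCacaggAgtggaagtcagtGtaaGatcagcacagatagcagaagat
Serpinb3c: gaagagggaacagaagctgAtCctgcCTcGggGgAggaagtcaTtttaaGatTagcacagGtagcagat
Serpinb3d: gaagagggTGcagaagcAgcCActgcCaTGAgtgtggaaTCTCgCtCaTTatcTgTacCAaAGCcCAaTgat
Against Serpinb3a, Serpinb3b has 4 differing positions in this stretch, Serpinb3c has 14 including the missing codon, and Serpinb3d has 27. Over the whole coding sequence Serpinb3a was 93.0% identical to Serpinb3b, 91.5% to Serpinb3c and 89.2% to Serpinb3d. The closest pair was Serpinb3b and Serpinb3c, at 93.4%, and the most distant was Serpinb3c and Serpinb3d, at 86.8%. The longest run without a difference between Serpinb3a and Serpinb3b was 76 bases, coding bases 73 to 148, and is shown because a short read within it cannot be placed on 1 of the 2 genes.
Serpinb3a and Serpinb3b shared run: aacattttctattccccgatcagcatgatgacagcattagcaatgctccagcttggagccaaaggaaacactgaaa
Of all 50-base stretches of the reference transcripts, 6.59% of those of Serpinb3a, 14.3% of Serpinb3b, 9.44% of Serpinb3c and 4.97% of Serpinb3d also occurred in another of the 4. Between 3.23% and 12% of each transcript's stretches occurred in other annotated genes, the predicted genes Gm8080, Gm8084, Gm8089 and Gm44543, and for each paralog some stretches fell in both of these sets. How the counting treated such reads, and whether it used strand, is not given in the sources used here. The split of counts among the 4 paralogs is therefore uncertain. The shares above count exact matches between reference transcripts only, so they do not bound this uncertainty, which was not measured.

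The regions upstream of the starts of Serpinb3a and Serpinb3b are shown because the 2 genes differed in opposite directions between genotypes while these sequences are close to identical. The 250 bases before each start are at chr1:107052304-107052553 and chr1:107161115-107161364 (minus strand, RefSeq, GRCm38.p6), and capitals mark TATAAA.
Serpinb3a: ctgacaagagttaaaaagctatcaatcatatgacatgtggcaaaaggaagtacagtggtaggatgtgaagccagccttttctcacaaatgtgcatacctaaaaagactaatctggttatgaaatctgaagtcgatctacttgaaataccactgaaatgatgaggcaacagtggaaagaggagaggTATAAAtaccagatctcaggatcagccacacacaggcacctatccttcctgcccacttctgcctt
Serpinb3b: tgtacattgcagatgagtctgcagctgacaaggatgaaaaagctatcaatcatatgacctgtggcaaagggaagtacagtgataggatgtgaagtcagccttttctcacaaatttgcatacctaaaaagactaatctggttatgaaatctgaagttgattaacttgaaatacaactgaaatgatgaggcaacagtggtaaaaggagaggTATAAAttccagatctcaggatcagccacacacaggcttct
Over the RefSeq window of 250 bases before to 50 after the start, the aligned identity was 93.1% between Serpinb3a and Serpinb3b, 93.6% between Serpinb3a and Serpinb3c and 96.2% between Serpinb3b and Serpinb3c. Serpinb3d shared 54.9% to 60.9% with the others, but its gene model begins at the coding start, so its window is not the matching region. On both strands, each of the 4 windows held TATAAA once, at 65, 41, 31 and 40 bases before the start in the order Serpinb3a, Serpinb3b, Serpinb3c, Serpinb3d (in Serpinb3d on the other strand). Of all 32851 RefSeq promoter windows, 13.6% held it. The STAT6-type pattern, TTC and GAA with any 4 bases between them (in 6.95% of all windows), TTCNNNGAA (STAT3 and STAT5 type, 8.30%) and TGANTCA (AP-1 type, 7.81%) were not in any of the 4 windows. The STAT patterns differ only in the length of their spacer.

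Total counts ran from 6705396 to 12933436 per library. Levels are given as counts per 1000000 (CPM) on totals scaled by the trimmed mean of M-values (TMM), on which 1 read was worth 0.0758 to 0.160 CPM. Transcripts of major urinary protein (Mup) genes took 8.43% to 39.0% of a library. Summed over 12 keratinocyte markers, levels ran from 5588 to 12783 CPM in wild type and from 4638 to 15003 CPM in labelled-null libraries, and none of the 12 was at 0 throughout a group. By rank correlation over all gene IDs, the libraries farthest from the rest were labelled-null SAL replicate 1 (median 0.929) and wild-type ASP replicate 3 (median 0.943). Since the tissue is whole skin, fewer expressing cells and less RNA per cell cannot be told apart.

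Serpinb3a, the paralog named in the design, was scarce in wild-type skin and higher in every labelled-null library. Wild-type SAL libraries held 8, 7 and 4 reads of it (0.725, 0.720 and 0.304 CPM), and wild-type ASP libraries 8, 15 and 2 reads (0.699, 1.40 and 0.264 CPM). Labelled-null SAL libraries held 40, 72 and 76 reads (6.39, 8.61 and 7.21 CPM), and labelled-null ASP libraries 24, 23 and 18 reads (2.31, 1.74 and 1.98 CPM). All 6 labelled-null libraries lay above all 6 wild-type libraries, the closest being labelled-null ASP replicate 2 and wild-type ASP replicate 2. Mean levels under SAL came to 0.583 ± 0.242 CPM for wild type and 7.41 ± 1.12 CPM in labelled-null skin, and under ASP they were 0.788 ± 0.573 and 2.01 ± 0.283 CPM (SD, n = 3). The ratio of means between genotypes was 12.7 under SAL and 2.55 under ASP. From the summed reads alone, the ratio was 13.3 (exact 95% interval 8.31 to 22.7) under SAL and 2.37 (1.47 to 3.92) under ASP, intervals that cover counting error only. The table gives 1 count per gene, so which exons these reads fall on was not analysed here.

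Serpinb3d, the paralog whose loop differs most from that of Serpinb3a, followed the same order of genotypes at lower levels. Wild-type SAL libraries held 3, 1 and 3 reads (0.272, 0.103 and 0.228 CPM) and wild-type ASP libraries 2, 1 and 2 reads (0.175, 0.0934 and 0.264 CPM). Labelled-null SAL libraries held 13, 23 and 23 reads (2.08, 2.75 and 2.18 CPM) and labelled-null ASP libraries 22, 11 and 5 reads (2.12, 0.834 and 0.550 CPM). Again no labelled-null library overlapped the wild-type range, although labelled-null ASP replicate 3 rested on 5 reads. Wild-type means were 0.201 ± 0.0877 (SAL) and 0.177 ± 0.0854 CPM (ASP), and labelled-null means 2.34 ± 0.363 and 1.17 ± 0.834 CPM (SD, n = 3). With so few wild-type reads the size of the difference is loose: the ratio of summed reads was 11.4 (5.19 to 29.5) under SAL and 6.91 (2.72 to 22.5) under ASP.

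Serpinb3b was the most abundant paralog in wild-type skin and stood lower in labelled-null skin. Wild-type SAL libraries held 383, 271 and 127 reads (34.7, 27.9 and 9.64 CPM) and wild-type ASP libraries 191, 238 and 44 reads (16.7, 22.2 and 5.81 CPM). Labelled-null SAL libraries held 43, 59 and 70 reads (6.87, 7.06 and 6.64 CPM) and labelled-null ASP libraries 84, 93 and 74 reads (8.08, 7.05 and 8.14 CPM). The 6 labelled-null libraries lay within a narrow band, 5 of the wild-type libraries lay above that band, and wild-type ASP replicate 3 lay below it. The groups did not overlap under SAL (means 24.1 ± 12.96 against 6.86 ± 0.208 CPM) and overlapped under ASP (14.9 ± 8.35 against 7.76 ± 0.614 CPM). Serpinb3b was thus 3.51-fold lower by its mean under SAL and 1.92-fold lower under ASP.

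Serpinb3c, the nearest relative of Serpinb3b in coding sequence, was low everywhere. Its levels were 3.44, 3.50 and 0.835 CPM in wild-type SAL (38, 34 and 11 reads) and 2.36, 3.27 and 1.45 CPM in wild-type ASP (27, 35 and 11 reads). They were 1.92, 2.27 and 0.949 CPM in labelled-null SAL (12, 19 and 10 reads) and 1.15, 1.29 and 0.990 CPM in labelled-null ASP (12, 17 and 9 reads). The genotypes overlapped under SAL and did not under ASP, where the smallest wild-type value was 1.45 CPM and the largest labelled-null value 1.29 CPM.

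**Figure D1:**
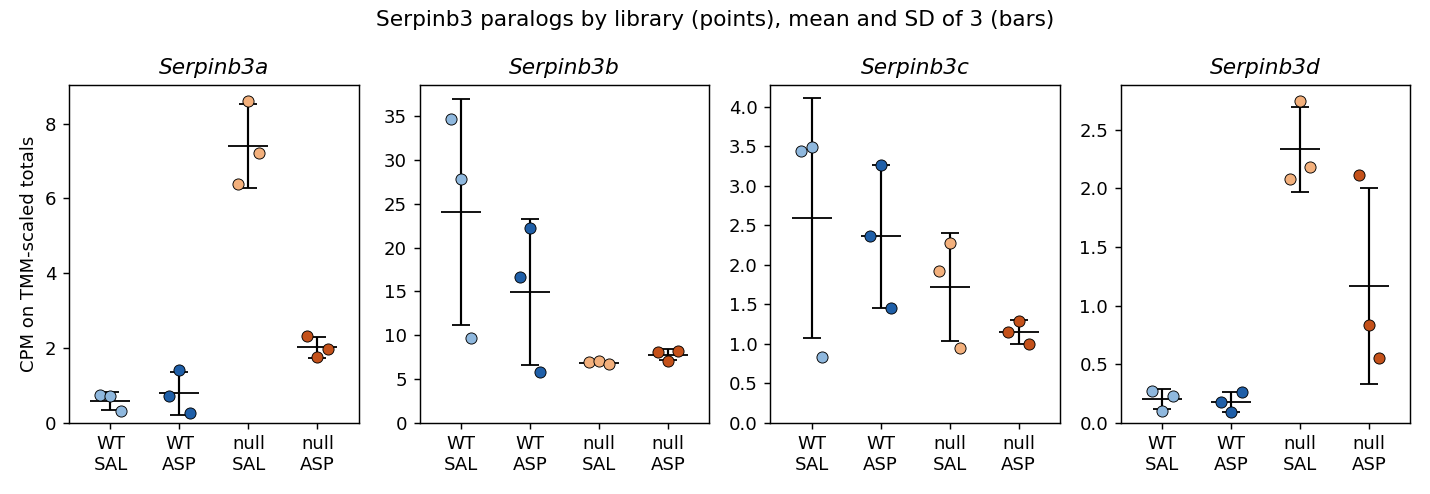
Level of each Serpinb3 paralog in CPM on TMM-scaled totals (vertical axis, a separate linear scale per gene) in the 12 libraries, grouped by genotype (WT, wild type; null, labelled-null) and treatment; points are libraries, the long bar is the mean and the whiskers the SD of 3. Serpinb3a and Serpinb3d lie higher in every labelled-null library than in any wild-type library, and Serpinb3b lies between 6.64 and 8.14 CPM in all labelled-null libraries against 5.81 to 34.7 CPM in wild type.

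The difference between labelled-null and wild type under SAL asks how the named genotype changes the locus without the mould extract. The quasi-likelihood test of edgeR, fitted over all 15341 genes tested with Benjamini-Hochberg adjustment, gave positive log2 fold changes (± SE) for Serpinb3a (3.66 ± 0.67) and Serpinb3d (3.45 ± 0.89) and negative ones for Serpinb3b (-1.81 ± 0.50) and Serpinb3c (-0.60 ± 0.69). At an adjusted p under 0.05 none of the 4 passed, and 0% of all genes did. At an unadjusted p under 0.05 edgeR returned 3 of the 4 (Serpinb3a, Serpinb3d and Serpinb3b), where 4.37% of all genes met that level. In edgeR, Serpinb3a had the 2nd smallest p of all genes (4.62e-05, adjusted 0.354), Serpinb3d the 11th (0.00126, adjusted 1.00) and Serpinb3b the 21st (0.00205, adjusted 1.00). The 3 paralogs without overlap between genotypes under SAL compare with 8.06% of all genes tested. Serpinb3a and Serpinb3d passed the filter on low counts only through labelled-null libraries, so their ranks and lack of overlap are not free of that selection. DESeq2 on the same counts called Serpinb3a (log2 fold change 3.71, adjusted p = 3.59e-05), and limma-voom did not. The call on Serpinb3a thus depends on the test used.

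Under ASP the same comparison gave a smaller value for Serpinb3a. The edgeR log2 fold changes were 1.31 ± 0.63 for Serpinb3a (unadjusted p = 0.0552) and 2.68 ± 0.91 for Serpinb3d (unadjusted p = 0.00943). For Serpinb3b the value was -0.95 ± 0.48 (unadjusted p = 0.0676) and for Serpinb3c -1.04 ± 0.69 (unadjusted p = 0.152). All 4 had an adjusted p of 0.999 in edgeR, and 0% of all genes passed 0.05. Serpinb3d alone of the 4 had an unadjusted p under 0.05 here, beside 3.07% of all genes. Serpinb3a, Serpinb3c and Serpinb3d showed no overlap between genotypes under ASP, beside 7.62% of all genes. Leaving out wild-type ASP replicate 2 moved the Serpinb3a value to 1.98, and leaving out both libraries farthest from the rest moved it to 0.93.

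Averaged over SAL and ASP, the genotype difference in log2 was 2.48 ± 0.46 for Serpinb3a and 3.06 ± 0.64 for Serpinb3d. It was -1.38 ± 0.35 for Serpinb3b and -0.82 ± 0.49 for Serpinb3c (95% interval -1.85 to 0.21). The adjusted p in edgeR was 0.258 for Serpinb3a, 0.530 for Serpinb3d and 1.00 for the other 2, so none passed, and 0.00652% of all genes, 1 gene, did. At an unadjusted p under 0.05 edgeR returned 3 of the 4, beside 3.74% of all genes. Serpinb3a and Serpinb3d were 2 of the 31 genes, 0.202% of those tested, without overlap between the 6 labelled-null and the 6 wild-type libraries. Both were among the genes tested only through their labelled-null levels. DESeq2 called Serpinb3a (2.50, adjusted p = 0.000122) and Serpinb3d (3.14, adjusted p = 0.0251) in this comparison, and limma-voom called neither.

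For each paralog by itself, a two-sided exact permutation test over all splits of 6 against 6 libraries was made on log2(CPM + 0.5), a scale that understates changes of genes this low. On it Serpinb3a differed by 1.97 and Serpinb3d by 1.61, each at an exact p of 0.00216, the smallest p that these splits can give. Serpinb3b differed by -1.13 (exact p = 0.0260) and Serpinb3c by -0.56 (exact p = 0.0931). With labels exchanged only within a treatment (400 splits, smallest possible p 0.005) the exact p was 0.005 for Serpinb3a and Serpinb3d, 0.03 for Serpinb3b and 0.11 for Serpinb3c. Any gene without overlap between the genotypes reaches the smallest possible p, so for Serpinb3a and Serpinb3d these tests add nothing to the lack of overlap. All these p-values stand for single genes and are not adjusted over the table. The paralogs and tests were chosen with earlier results of these data known.

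The extract itself was compared with SAL within each genotype. In wild-type skin no paralog moved beyond its spread: Serpinb3a had a log2 fold change of 0.47 ± 0.66 for ASP against SAL, Serpinb3b -0.69 ± 0.48, Serpinb3c -0.12 ± 0.67 and Serpinb3d -0.23 ± 0.98. The 95% interval for Serpinb3b, the paralog with most reads, ran from -1.69 to 0.32. In edgeR 0 of the 4 passed an adjusted or an unadjusted p of 0.05, beside 0% and 4.74% of all genes, and DESeq2 called none of them. All 4 wild-type SAL and ASP ranges overlapped, as they did for all but 6.79% of genes tested. The signs of the 3 smallest of these values turned when single libraries were left out.

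In labelled-null skin Serpinb3a stood lower under ASP than under SAL, by 3.68-fold in the means and with no overlap between the 3 libraries of each group. The log2 fold change was -1.88 ± 0.61, with an unadjusted p of 0.00680 and an adjusted p of 0.989 in edgeR. It was the only 1 of the 4 under an unadjusted p of 0.05 and the only 1 without overlap, where 4.52% and 10.5% of all genes met these marks, and at an adjusted p of 0.05 the share was 0%. Serpinb3d was lower by its mean with overlapping libraries (-0.995 ± 0.78), as was Serpinb3c (-0.56 ± 0.70), and Serpinb3b had 0.18 ± 0.49 (95% interval -0.86 to 1.21).

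The interaction, which tests whether the genotype difference itself differs between treatments, was -2.35 ± 0.90 for Serpinb3a in log2. In edgeR its unadjusted p was 0.0186 and its adjusted p 0.998. For the others it was 0.86 ± 0.68 (Serpinb3b), -0.44 ± 0.97 (Serpinb3c) and -0.77 ± 1.33 (Serpinb3d). Serpinb3a was thus the 1 paralog of 4 with an unadjusted p under 0.05, beside 3.81% of all genes, and 0% passed after adjustment.

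**Figure D2:**
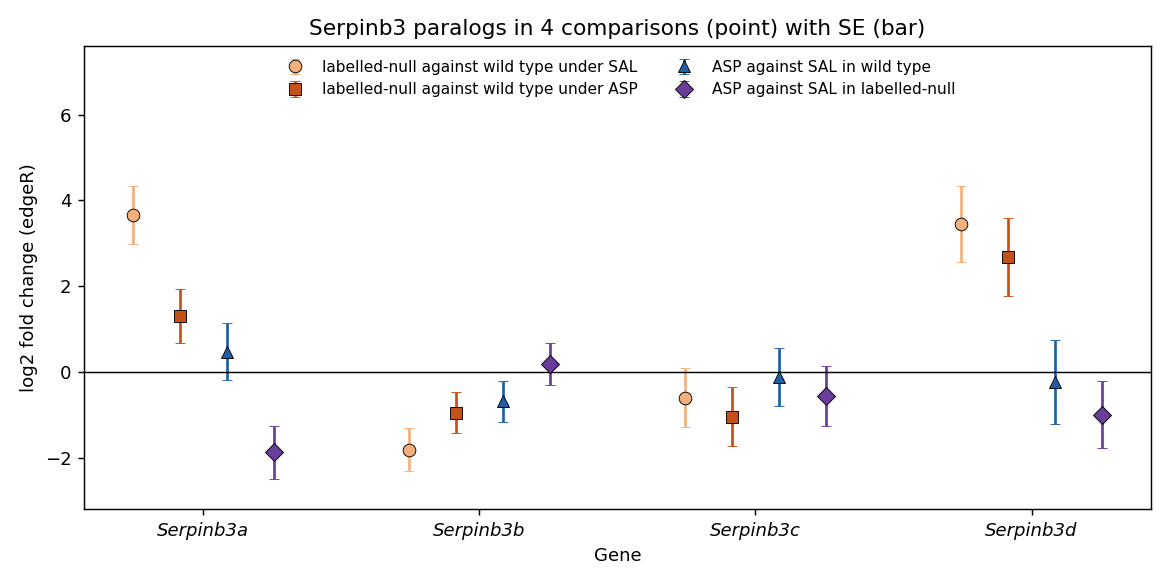
edgeR log2 fold change (vertical axis) of the 4 Serpinb3 paralogs in 4 comparisons; points are estimates from the fit over all 12 libraries and bars are 1 SE, and comparisons of 1 gene share groups. Serpinb3a and Serpinb3d lie above 0 in both genotype comparisons, Serpinb3b and Serpinb3c below 0, and the value of Serpinb3a farthest below 0 is ASP against SAL in labelled-null skin, at -1.88.

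Because the 4 genes share sequence, their makeup was also described as shares of their summed reads, with exact Clopper-Pearson 95% intervals that cover counting error only. Serpinb3b made up 86.6% to 88.7% of the reads in wild-type SAL libraries and 74.6% to 83.8% in wild-type ASP libraries. In labelled-null libraries it made up 34.1% to 39.8% under SAL and 59.2% to 69.8% under ASP. The share taken by Serpinb3a ranged from 1.85% (interval 0.803% to 3.62%) to 2.76% (0.757% to 6.91%) in wild-type SAL and from 3.39% to 5.19% in wild-type ASP. It was 37.0% (27.9% to 46.9%), 41.6% (34.2% to 49.3%) and 42.5% (35.1% to 50.1%) in the labelled-null SAL libraries, and lay between 16.0% and 16.98% in labelled-null ASP. In wild-type SAL the Serpinb3b share kept to that narrow range although its level spanned 9.64 to 34.7 CPM. The Serpinb3d share spread more between replicates, at 15.5%, 7.64% and 4.72% in labelled-null ASP.

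Serpinb3d took 0.319% to 3.39% of the summed reads in wild-type libraries and 4.72% to 15.5% in labelled-null libraries. The share of Serpinb3c was 7.59% to 18.6% in wild type and 5.59% to 11.8% in labelled-null libraries, ranges that overlapped. The summed level of the 4 genes was 27.4 ± 14.7 against 18.3 ± 2.07 CPM between wild-type and labelled-null skin under SAL, and 18.2 ± 9.70 against 12.1 ± 1.41 CPM under ASP (SD, n = 3). These ranges overlapped between genotypes under both treatments, and the sum carries no test. The sum rested on 59 to 432 reads per library.

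**Figure D3:**
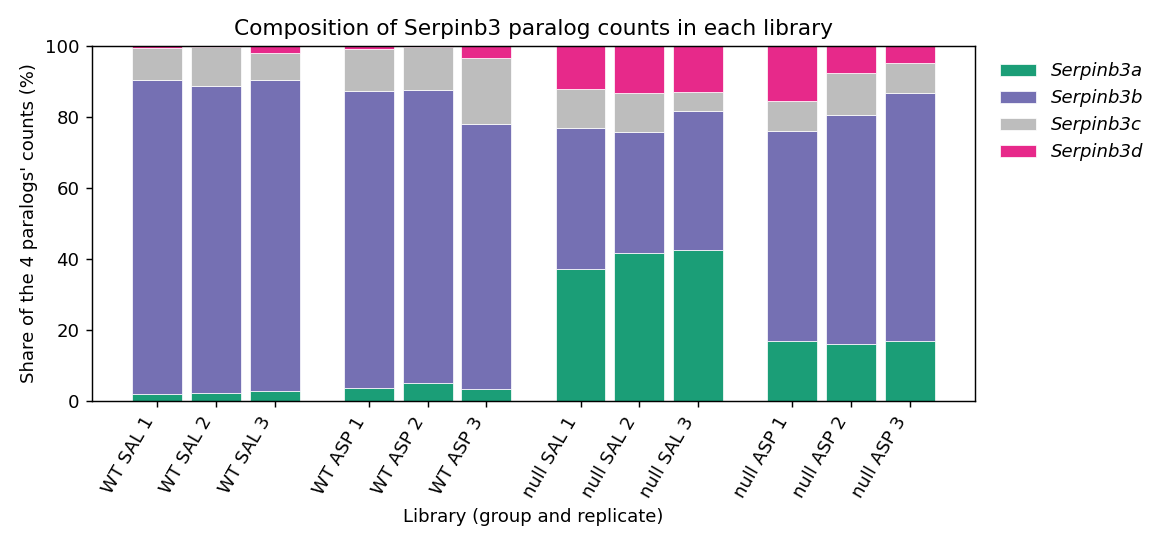
Share of each Serpinb3 paralog in the summed counts of the 4 (vertical axis, %) in each of the 12 libraries (horizontal axis, group and replicate; WT, wild type; null, labelled-null). Serpinb3b takes 74.6% to 88.7% of the bar in every wild-type library, while Serpinb3a takes 37.0% to 42.5% in labelled-null SAL and 16.0% to 16.98% in labelled-null ASP.

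Levels of different genes are compared per kb of transcript. On that scale the order of mean levels in wild-type SAL was Serpinb3b (14.6 CPM per kb), Serpinb3c (1.56), Serpinb3a (0.362) and Serpinb3d (0.165), and the libraries of Serpinb3a and Serpinb3d overlapped. Wild-type ASP kept this order, with mean levels of 9.02, 1.42, 0.489 and 0.146 CPM per kb, and the same overlap. In labelled-null SAL the order was Serpinb3a (4.60 CPM per kb), Serpinb3b (4.15), Serpinb3d (1.92) and Serpinb3c (1.03), with Serpinb3a and Serpinb3b overlapping. In labelled-null ASP it was Serpinb3b (4.69 CPM per kb), Serpinb3a (1.25), Serpinb3d (0.959) and Serpinb3c (0.690), and Serpinb3d overlapped both Serpinb3a and Serpinb3c.

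Keratinocytes are known to express the human counterparts of these genes, and their markers tended to positive values in labelled-null libraries. All 12 keratinocyte markers had a positive averaged genotype difference, with a median log2 of 0.23 beside -0.02 for all genes, and none passed the test. Under SAL alone 9 of the 12 were positive (median 0.16) and under ASP alone 10 (median 0.25). Averaged, Krt14, a basal keratin, had 0.48 ± 0.31 and Krt1, a suprabasal keratin, 0.48 ± 0.35. Krt14 had 0.60 ± 0.44 under SAL and 0.36 ± 0.44 under ASP. The average of Krt1 joined -0.12 ± 0.49 under SAL and 1.07 ± 0.50 under ASP. All 6 markers of stressed keratinocytes were positive too (median 0.40), Sprr1b, a cornified envelope precursor, at 0.64 ± 0.43. Of 6 sebocyte markers 5 were positive (median 0.50), among them Awat2, a wax synthase, at 1.28 ± 0.49 and Elovl3, a fatty acid elongase, at 1.03 ± 0.38, with 3 of the 6 under an unadjusted p of 0.05, beside 3.74% of all genes, and none after adjustment.

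Per 10000 reads of the 12 keratinocyte markers, a scale added after the data were seen, Serpinb3a stood at 0.694 ± 0.445 reads in wild-type and 8.77 ± 4.34 in labelled-null skin under SAL, and at 1.16 ± 1.17 against 1.76 ± 0.524 under ASP (SD, n = 3). On this scale the genotypes still did not overlap under SAL, but under ASP they did, since wild-type ASP replicate 2 reached 2.51. The genotype difference over 12 libraries was 2.28 in log2 (exact permutation p = 0.0152). Serpinb3d differed by 2.50 (exact p = 0.00216, the smallest possible) with no overlap, Serpinb3b by -1.48 (exact p = 0.0173) and Serpinb3c by -0.99 (exact p = 0.0974). The part of other cell types in these differences was not tested.

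The annotation places 35 further genes within 1 Mb of the 4 paralogs, of which 14 are in the table and 13 were tested. One of the 13, Serpinb11, passed in the averaged comparison, and it is the 1 gene of 15341 that did (0.00652%). Serpinb11, a clade B serpin that starts its span 83.9 kb beyond Serpinb3c, held 7, 11 and 5 reads in wild-type SAL and 31, 14 and 4 in wild-type ASP. It held 63, 43 and 98 reads in labelled-null SAL and 89, 123 and 97 in labelled-null ASP, so that all 6 labelled-null libraries lay above all 6 wild-type libraries. The means were 0.715 and 1.51 CPM in wild-type SAL and ASP against 8.17 and 9.52 CPM in labelled-null SAL and ASP, and the averaged log2 fold change was 3.06 ± 0.42 (edgeR adjusted p = 0.0257). The call ended in 8 of 12 refits that each left out 1 library (each wild-type SAL and labelled-null ASP library, and labelled-null SAL replicates 1 and 3; adjusted p up to 0.187), while the fold change stayed between 2.88 and 3.42.

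The other 12 neighbours did not pass. Nearest to Serpinb3a outside the paralogs' span, Serpinb13 and Serpinb12, both epidermal clade B serpins, had averaged log2 differences of 0.86 ± 0.93 and 0.67 ± 0.50. Serpinb5 (maspin) had 0.23 ± 0.22. Serpinb13 held 40 reads in wild-type SAL replicate 2, 16 and 43 in labelled-null ASP replicates 1 and 2, and 0 to 8 elsewhere. The average of Serpinb12 joined -0.43 ± 0.72 under SAL and 1.78 ± 0.70 under ASP. At an unadjusted p under 0.05 edgeR returned 1 of the 13 neighbours under SAL and 3 under ASP, beside 4.37% and 3.07% of all genes. Beyond Serpinb11, Serpinb7 had 0.12 ± 0.23, Serpinb2 0.23 ± 0.26, Serpinb10 -0.38 ± 0.32 and Serpinb8 0.29 ± 0.24. The genes that are not serpins lay near 0: Bcl2, an apoptosis inhibitor, at 0.09 ± 0.25, and Kdsr, a sphingolipid enzyme, at 0.07 ± 0.25. Vps4b, an endosomal ATPase, had -0.16 ± 0.18, the phosphatase Phlpp1 0.02 ± 0.21 and Gm20753 0.12 ± 0.47. Labelled-null SAL replicate 1 stood above all other libraries for Bcl2 (47.8 CPM) and Gm20753 (7.99 CPM). Over the 13 neighbours the median was 0.12, beside -0.02 for all genes. Of the 10 genes with the smallest p in this comparison, 4 lie in this interval: Serpinb11, Serpinb3a, Serpinb3d and Serpinb3b. The interval holds the 4 paralogs and 13 neighbours of the 15341 genes tested. All but Serpinb11 are paralogs chosen for description, and Serpinb3a and Serpinb3d passed the filter only through labelled-null libraries. Differences of both signs thus occurred within the span of the 4 paralogs: the adjacent Serpinb3a and Serpinb3d had positive values and the adjacent Serpinb3b and Serpinb3c negative ones.

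**Figure D4:**
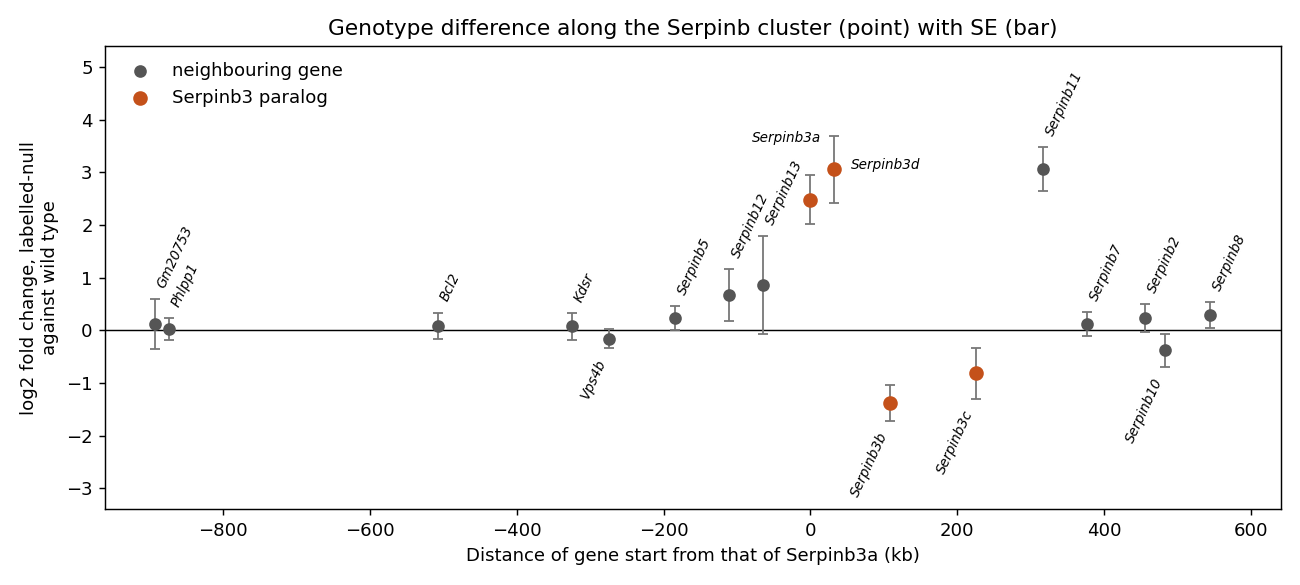
Averaged genotype difference (vertical axis, edgeR log2 fold change, labelled-null against wild type, bars 1 SE) against the distance of each gene from Serpinb3a, taken between their lower coordinates (horizontal axis, kb) for the 4 Serpinb3 paralogs and the 13 tested neighbours. Serpinb3a, Serpinb3d and Serpinb11 stand between 2.48 and 3.06, Serpinb3b and Serpinb3c at -1.38 and -0.82, and the other neighbours between -0.38 and 0.86.

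Clade B serpins over the whole genome were listed apart from the 4 paralogs, and 17 of 23 were tested. In the averaged genotype comparison 1 passed, Serpinb11, and 12 were positive, with a median log2 of 0.14 beside -0.02 for all genes. Serpinb9, the granzyme B inhibitor, had -0.49 ± 0.31 and Serpinb6c 0.68 ± 0.53, neither past the test.

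Of the cysteine cathepsins, the papain-type proteases that human SERPINB3 inhibits, 10 of 10 were tested and none passed in the averaged comparison (median 0.08, 6 positive). The medians were 0.28 under SAL (8 positive) and -0.22 under ASP (3 positive), and none passed in either. Averaged, Ctsh, an aminopeptidase, had 0.49 ± 0.26 and Ctsc, which activates granule serine proteases, 0.33 ± 0.24. Ctso had -0.34 ± 0.29 and Ctsz -0.53 ± 0.46. The average of Ctsz joined 0.34 ± 0.66 under SAL and -1.40 ± 0.66 under ASP. Of 11 chymotrypsin-like serine proteases of mast cells and granulocytes only 3 were abundant enough to test, and none passed. These were the mast cell chymases Cma1 (-0.24 ± 0.29), Cma2 (-0.59 ± 0.47) and Mcpt4 (-0.13 ± 0.27).

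Of the 23 cytokines, receptors and signalling genes known to act upstream of human SERPINB3, 18 were tested and none passed (median 0.04, 11 positive). Il17ra, a subunit of the IL-17 receptor, was the 1 member of 18 under an unadjusted p of 0.05, at -0.65 ± 0.25, where 3.74% of all genes met that level. Il2rg, the common gamma chain, had 0.64 ± 0.35, Il22ra1, a subunit of the IL-22 receptor, 0.33 ± 0.21 and Tnfrsf1a, a TNF receptor, 0.36 ± 0.23. Il22 was at 0 reads in all 12 libraries.

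The genes whose levels followed each paralog most closely were ranked by Spearman correlation of log2(CPM + 0.5) over the 12 libraries, among 13609 genes. This is a description in which every point shares its library's depth and scaling. Both genotypes are pooled, so a gene that differs between them can rank high for that alone. Serpinb3d rested on 1 to 3 reads in each wild-type library. For Serpinb3a the closest genes were Tbc1d13 (0.902), Klhl38 (0.895) and C1qb (0.881). For Serpinb3d they were Cyp2g1 (0.972), Mxd1 (0.881) and 1810034E14Rik (0.881), with Cyp2g1, a cytochrome P450, at group means of 6.21 and 5.74 CPM in wild-type SAL and ASP against 53.0 and 41.0 CPM in labelled-null. For Serpinb3b they were Tal1 (0.888), Slc3a1 (0.874) and Adam1a (0.874), and for Serpinb3c Rnaseh2b (0.867), Pold3 (0.860) and Shc4 (0.832).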

How the data were processed

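RNA from mouse skin was measured by sequencing in 12 libraries, 3 in each of 4 groups. The deposited table holds counts, whole reads per Entrez Gene ID that the authors did not normalize, as its values show. Of its 18 columns, 12 match the samples by name, and 6 match none and were not used. Per the submitters' processing notes, the build was mm10 and the tools included TopHat, CASAVA 1.8, bcl2fastq and DESeq. The program that counted reads, its annotation and its strand setting: not given in the sources used here. Gene IDs without a symbol, 97 of 23469, held 7.57% to 15.8% of a library's counts. Total counts were 6705396 to 12933436 per library, so 1 read of a paralog was worth 0.0758 to 0.160 CPM.

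Genes were kept by filterByExpr (15341 genes), given TMM factors (0.647 to 1.28) and modelled by robust glmQLFit of edgeR 4.0.16 in R 4.3.3, 1 coefficient per group over all 12 libraries, with Benjamini-Hochberg adjustment over all genes tested and a threshold of 0.05. The common dispersion was 0.182. Standard errors and 95% intervals come from that fit. Groups follow the labels, which give no batch. Fitting and permutation code was tested on simulated data. Exact permutation tests used log2(CPM + 0.5). Sequences were taken from GENCODE M21 transcripts and RefSeq promoter windows (GRCm38.p6) with Biopython 1.88, and coding identity was counted over aligned bases.

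The 4 paralogs, the gene lists and the tests were chosen with earlier results of these data known. Named genes are the 4 paralogs, all tested neighbours within 1 Mb, up to 4 members of a list with the smallest p in the averaged genotype comparison, and the 3 genes most alike each paralog among genes whose mean log2 CPM was 1 or more. Lists of hair shaft, muscle, adipocyte, fibroblast, macrophage, mast cell, T cell, endothelial and red blood cell markers are summarised after the report. The alternatives were RLE and upper-quartile scaling, no filter, at least 2 CPM in 3 libraries, a fit that is not robust, a replicate block, DESeq2 1.42.0, limma-voom (limma 3.58.1), leaving out Mup genes and IDs lacking a symbol, and leaving out libraries. A fit on only the libraries compared was also made for each comparison of 2 groups. For the permutation tests the alternatives included other pseudocounts and unscaled totals.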

Additional observations from a re-analysis of the deposited data

Results flagged for a closer look

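The interaction of genotype and treatment for Serpinb3a had an unadjusted p under 0.05 but did not pass after adjustment, so a difference between the treatments in its genotype effect is not shown. It was -2.35 in log2 (SE 0.90), with an unadjusted p of 0.0186 and an adjusted p of 0.998 in edgeR, and 3.81% of all genes had an unadjusted p under 0.05. It stayed negative in all 22 other settings, from -2.82 to -1.68. Serpinb3a was lower in 3 of 3 labelled-null ASP libraries than in any labelled-null SAL library, while wild-type ASP and SAL libraries overlapped. Among the 12 keratinocyte markers 7 had a positive interaction and none passed the test; their part in the Serpinb3a value was not tested.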

How the results depend on the processing

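The genotype differences of the 4 paralogs kept their sign in every setting that tested them, under SAL, under ASP and averaged. So did ASP against SAL in labelled-null skin and the interaction. With DESeq2, Serpinb3a passed under SAL (3.71) and averaged (2.50) and Serpinb3d averaged (3.14). The genes called by DESeq2 numbered 6 (SAL), 5 (ASP) and 8 (averaged) between genotypes. They numbered 2 and 2 for ASP against SAL in wild type and labelled-null, and 1 for the interaction. The interaction call was Gm15093, at an extreme log2 fold change of -44.1. Gm15093 was also among the calls in those SAL, ASP, wild-type and labelled-null comparisons, at 22.9, -21.2, 21.2 and -22.8. edgeR did not call it. The averaged count of 1 gene became 2 with no filter, 3 with limma-voom, 0 without both libraries farthest from the rest, and 0 to 2 with single libraries left out; without both farthest libraries ASP against SAL in wild type had 1 called gene. Libraries with the same replicate number deviated together weakly at most (correlations of deviations -0.23 to 0.19, 5 of 18 pairs over 0.1). This does not exclude a pairing, since differently numbered libraries were not compared. The replicate block left 0 genes averaged. In wild type, ASP against SAL turned sign for Serpinb3c with limma-voom (0.24) and without both farthest libraries (0.12). With single libraries left out it ran from -0.55 to 0.15 for Serpinb3c, from -0.56 to 0.073 for Serpinb3d (0.02 without wild-type SAL replicate 1, 0.073 without wild-type ASP replicate 2) and from -0.20 to 0.85 for Serpinb3a; the cause was not tested. The permutation value of Serpinb3c, -0.56, passed with unscaled totals (-0.70, exact p = 0.0498), and ran from -0.77 to -0.45 with single libraries left out, passing without wild-type SAL replicate 3 (exact p = 0.0173). Under the filter of 2 CPM Serpinb3d was not tested. In fits on only the libraries compared, Serpinb3d was not tested between genotypes under ASP. In such fits neither Serpinb3a nor Serpinb3d was tested for ASP against SAL in wild type. Depth limits Serpinb3d most, at 1 to 3 reads in each wild-type library.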

Other observations

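Markers of other cells in the skin varied between libraries, and in edgeR none passed an adjusted p of 0.05 in any comparison. Mast cell markers were lower in labelled-null libraries by their median (averaged log2 -0.42, 0 of 5 positive), with Cpa3, a mast cell carboxypeptidase, at -0.61 ± 0.27. Endothelial markers had a median of -0.46 (1 of 4 positive), with the cadherin Cdh5 at -0.87 ± 0.33. Macrophage markers had a median of 0.28 (4 of 5 positive), T cell markers -0.50 (2 of 5) and fibroblast markers -0.07 (2 of 6). Adipocyte markers had -0.14 (2 of 6) and red blood cell markers 0.30 (3 of 4). Several of these averages joined unlike values. Under SAL and ASP the medians were -0.91 and -0.003 for endothelial and 0.14 and -0.68 for adipocyte markers. They were -0.08 and -0.73 for mast cell and -0.01 and -0.98 for T cell markers. Skeletal muscle markers summed to 20222 to 99669 CPM in wild type and 41835 to 52114 CPM in labelled-null libraries, with a median of -0.23 (1 of 8 positive). Hair shaft and root sheath markers summed to 0.924 to 11.9 CPM in 5 of 6 wild-type libraries and 428 CPM in the remaining wild-type SAL library, against 2.31 to 8.26 CPM in labelled-null libraries, and 3 of 10 were tested (median -1.41).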
